A study of Mus musculus with 9 samples.

Results

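The genes described are 10 of the 22048 genes in the count table: Dapl1, Tent5a, Slco1a5, Slc25a40, Tacr3, Tnfrsf23, Rspo4, Cib3, Cryl1 and Sult1d1. They were taken as listed symbols, each matched to its Ensembl identifier, and have little known role in islets. They were chosen by their expression values at the 3 glucose concentrations in these same libraries, so that every level, difference and count of calls given for these 10 genes is a description with no test. All 10 passed the expression filter that left 9739 genes for testing.

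The islets were those of ICR mice, an outbred stock. They were cultured for 3 days in medium with 11.8, 20 or 35 mM glucose, with 3 libraries per concentration and no genetic change or other agent in any group. In the labels 11.8 mM is the control, 20 mM stands for a hyperglycemic state and 35 mM for an extreme one. For the highest concentration a label text on treatment names 25 mM, but the titles, the characteristics and the design text name 35 mM, and 35 mM is used here. RNA was read with CEL-Seq2, a method that sequences a tag near the 3' end of each transcript, and levels are given as CPM, the read count of a gene scaled by library size, with the TMM adjustment for library composition.

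Islets are small organs of insulin-secreting beta cells with glucagon, somatostatin and pancreatic polypeptide cells, and glucose acts on beta cells both as the trigger of secretion and as a regulator of gene expression. The 10 genes belong to different classes: RNA and translation factors, membrane transporters, receptors and a secreted ligand, a calcium-binding protein, and metabolic enzymes. For most of them the best known roles come from other tissues, such as the neurokinin B receptor in hypothalamic neurons and R-spondins in the stem cells of the gut.

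Gene counts per library ran between 3228648 and 4559561, with reads for 13366 to 13923 genes. Beta cell markers took 51.0% to 59.0% of the gene counts at 11.8 mM, 50.6% to 55.4% at 20 mM and 52.1% to 56.6% at 35 mM. Alpha cell markers took 1.49% to 2.02%, 1.43% to 1.84% and 1.40% to 1.68% at the same concentrations, and none of the markers listed for any cell type was at 0 in all libraries. Acinar markers, from exocrine tissue carried along, ranged from 0.320% to 1.18% at 11.8 mM, from 0.678% to 1.20% at 20 mM and from 0.631% to 1.09% at 35 mM. In bulk samples fewer cells of a type and less RNA per cell cannot be told apart. The islets came from 9 mice, but the labels do not say that each library is a separate mouse, so that a p-value reflects the spread between libraries alone, and that spread may be technical.

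All 10 genes passed the call at 35 against 11.8 mM, 7 higher and 3 lower, at an adjusted p under 0.05 by the edgeR quasi-likelihood test, adjusted by Benjamini and Hochberg. Over all genes tested 0.863% were called in that comparison. The libraries of these 2 concentrations did not overlap for any of the 10, as for 14.9% of all genes tested (8.22% higher and 6.69% lower). By direction the calls over all genes were 0.626% higher and 0.236% lower. At 20 against 11.8 mM, 6 of the 10 were called (Dapl1, Tent5a, Slco1a5, Slc25a40 and Tnfrsf23 higher and Cib3 lower), against 0.185% of all genes. There the libraries did not overlap for 9 of the 10, as for 12.8% of all genes (6.79% higher and 6.04% lower), and Cryl1 was the exception. At 35 against 20 mM the same test called 0 of the 10 and 3 genes in all (0.0308%), DESeq2 called 0 of the 10, and 5 of the 10 had an unadjusted p under 0.05, as had 5.29% of all genes. The libraries at 35 and 20 mM were separate for Tacr3, which was higher, and for Cryl1 and Sult1d1, which were lower, as for 11.9% of all genes (6.15% higher and 5.76% lower). Without replicate 3 at 11.8 mM the calls numbered 6 at 35 mM and 2 at 20 mM, and without replicate 1 or 3 at 20 mM those at 20 mM numbered 3 or 2. With the mean log2 CPM of the acinar markers among the genes tested as a covariate, 10 were called at 35 mM and 3 at 20 mM. The calls lost at 20 mM were those of Slc25a40, Tnfrsf23 and Cib3. The median size of the log2 fold change of the 10 genes was 1.42 at 35 against 11.8 mM, 1.03 at 20 against 11.8 mM and 0.45 at 35 against 20 mM. Over all genes tested the same medians were 0.197, 0.183 and 0.170.

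**Figure D1:**
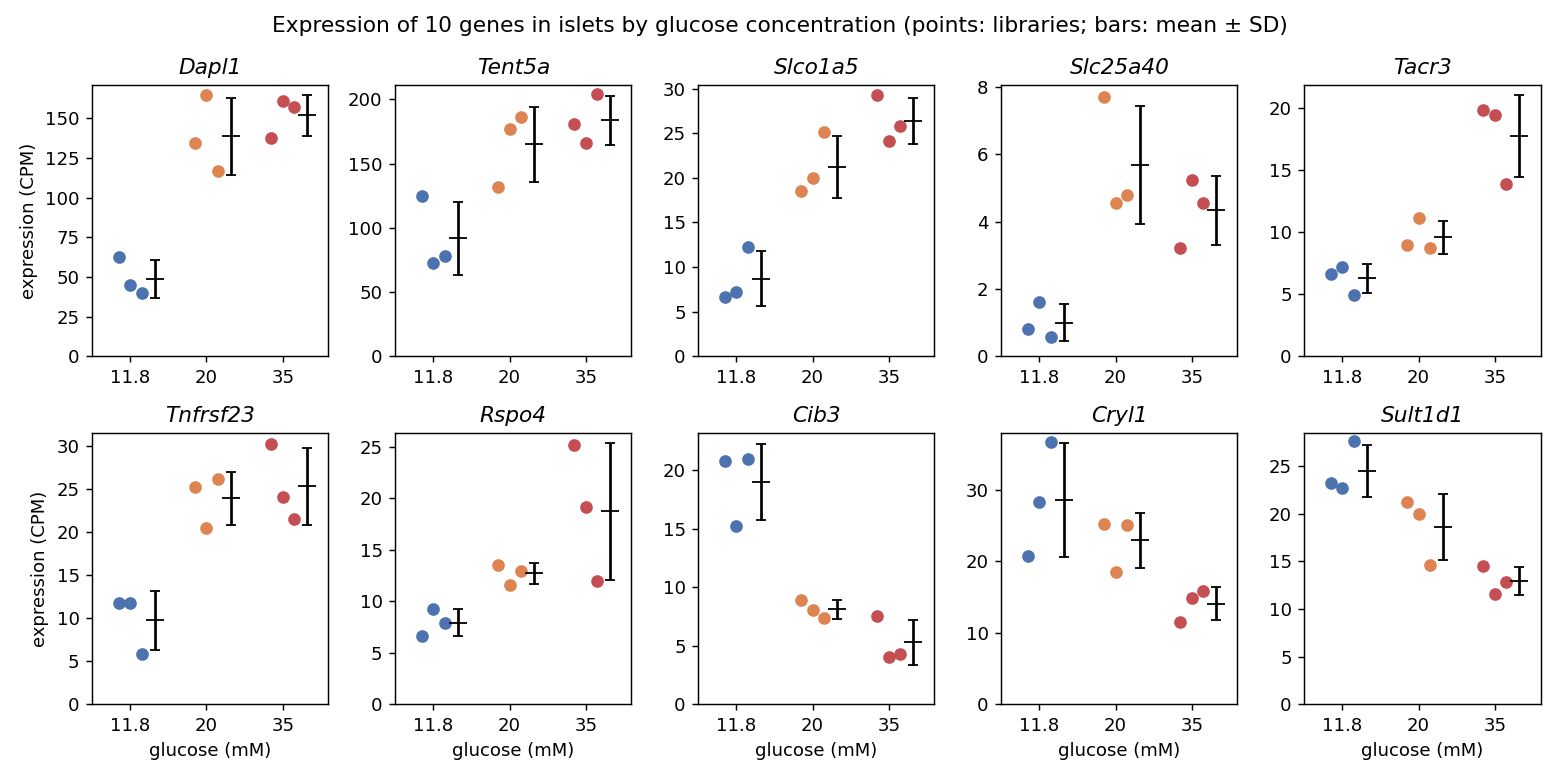
Expression in CPM (vertical axes, each from 0) of the 10 genes at 11.8, 20 and 35 mM glucose (horizontal axes), with 1 point per library and bars for mean ± SD of 3 libraries. The 7 genes from Dapl1 to Rspo4 lie higher at 35 than at 11.8 mM without overlap, and Cib3, Cryl1 and Sult1d1 lie lower, and for Dapl1 the level at 20 mM (139 CPM) is already close to that at 35 mM (152 CPM).

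The stretches of genome just before 4 of the genes are shown because these genes form the pairs of rising genes whose profiles over the 9 libraries lay closest, Tacr3 with Rspo4 and Dapl1 with Tnfrsf23. The sequences are the 250 bases before the RefSeq start on GRCm38.p6, read along the gene's strand, at chr2:59484403-59484652 on the plus strand (Dapl1), chr7:143685876-143686125 on the minus strand (Tnfrsf23), chr3:134828757-134829006 on the plus strand (Tacr3) and chr2:151842677-151842926 on the plus strand (Rspo4). Capitals mark matches, on either strand, to the letters TGACG of a cAMP response element core, TATAAA of a TATA box and CACGTG of an E-box.
Dapl1: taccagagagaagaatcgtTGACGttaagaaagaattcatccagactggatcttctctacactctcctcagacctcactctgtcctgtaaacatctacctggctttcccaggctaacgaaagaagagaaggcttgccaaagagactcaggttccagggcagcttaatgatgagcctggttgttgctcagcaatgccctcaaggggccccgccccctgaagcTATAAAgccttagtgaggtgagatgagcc
Tnfrsf23: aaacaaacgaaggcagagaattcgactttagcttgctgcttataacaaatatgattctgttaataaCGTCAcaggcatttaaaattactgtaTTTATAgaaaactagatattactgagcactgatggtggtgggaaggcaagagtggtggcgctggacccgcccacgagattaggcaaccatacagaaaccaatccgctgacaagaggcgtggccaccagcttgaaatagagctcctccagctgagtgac
Tacr3: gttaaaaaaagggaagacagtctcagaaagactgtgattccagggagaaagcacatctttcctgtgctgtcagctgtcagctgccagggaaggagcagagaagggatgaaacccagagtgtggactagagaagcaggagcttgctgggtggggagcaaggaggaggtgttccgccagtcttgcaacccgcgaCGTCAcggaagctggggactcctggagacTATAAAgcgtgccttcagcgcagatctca
Rspo4: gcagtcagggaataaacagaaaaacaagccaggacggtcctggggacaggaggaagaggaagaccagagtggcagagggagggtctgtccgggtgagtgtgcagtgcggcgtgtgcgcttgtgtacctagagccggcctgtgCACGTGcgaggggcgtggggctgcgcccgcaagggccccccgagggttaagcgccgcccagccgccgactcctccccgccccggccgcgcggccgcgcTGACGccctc
In Dapl1 and in Tacr3 the letters TATAAA stood at the same place, from -29 to -24 relative to the start, where a TATA box usually lies. In Tnfrsf23 they stood on the opposite strand, from -158 to -153. Only Rspo4 of the 10 genes had CACGTG, from -108 to -103, in a window with 69.6% G and C and 24 CpG sites, against 54.4% in Tacr3, 50.0% in Dapl1 and 44.8% in Tnfrsf23 (median over all windows 52.4%).

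RefSeq gave 12 such windows for the 10 genes, since Slco1a5 and Tent5a each have a pair of starts, and 32851 windows in all. For 2 of the 12, that of Slc25a40 and the inner 1 of Slco1a5, the bases just after the start were not found in a GENCODE transcript of the gene, so that these starts are less certain. The core TGACG was in 5 of the 12 (Dapl1, Rspo4, Slc25a40, Tacr3 and Tnfrsf23) and in 17.8% of all windows. TATAAA was in 7 of the 12, from 5 genes, and in 12.4% of all windows. The pair of Tent5a windows overlap and hold the same TATAAA, so that this site is counted more than once. The GENCODE start of Tent5a lies inside both windows, and by that start its TATAAA lies after the start and not before it. Those of Cryl1 and Sult1d1 also lie inside their windows. CACGTG was in 6.02% of all windows. The AP-1 letters TGANTCA were in 1 of the 12, the inner window of Slco1a5, and in 6.75% of all windows. Neither the full cAMP response element TGACGTCA (1.55% of all windows) nor the carbohydrate response element (0.0974% of all windows), the site named for the glucose-responsive factor ChREBP, was matched in the 12. A match is a run of letters in these windows and not a measured site.

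Among the genes of translation and RNA tails, Dapl1 was higher at both raised concentrations. It encodes a small protein related to Dap that binds dormant ribosomes in frog and zebrafish eggs, and it lies on chromosome 2 (59484653 to 59505020, plus strand, GRCm38). Dapl1 had 62.4, 44.7 and 39.6 CPM at 11.8 mM, 134, 165 and 117 CPM at 20 mM, and 137, 161 and 157 CPM at 35 mM. Every library at 20 and 35 mM was above every library at 11.8 mM, and the libraries at 20 and 35 mM overlapped. On the log2 scale the fold change was 1.63 ± 0.16 (SE) at 35 against 11.8 mM, 1.50 ± 0.16 at 20 against 11.8 mM and 0.13 ± 0.15 at 35 against 20 mM. Dapl1 was called at both concentrations in all 22 alternative settings, with log2 fold changes of 1.50 to 1.84 at 35 mM and 1.36 to 1.78 at 20 mM.

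Tent5a, on chromosome 9 (85320439 to 85327348, minus strand), encodes a noncanonical poly(A) polymerase that in mouse osteoblasts lengthens the tails of collagen mRNAs. It had 124, 72.7 and 78.4 CPM at 11.8 mM, 131, 177 and 187 CPM at 20 mM, and 181, 166 and 204 CPM at 35 mM. The groups at 20 and 11.8 mM were separate by a narrow margin, between the lowest library at 20 mM (131 CPM) and the highest at 11.8 mM (124 CPM). The fitted log2 fold change was 1.00 ± 0.18 at 35 against 11.8 mM and 0.85 ± 0.18 at 20 against 11.8 mM, with 0.15 ± 0.17 between 35 and 20 mM. The call at 35 mM was lost without replicate 3 at 11.8 mM (log2 fold change 0.90). The call at 20 mM was lost in 14 of 22 alternatives, among them those without replicate 2 or 3 at 11.8 mM (0.70 and 0.74), replicate 2 or 3 at 20 mM (0.80 and 0.75) or replicate 1 or 2 at 35 mM (0.84 and 0.85).

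No other gene tested from the lists of their families or pathways was called. Over all genes tested only 0.863% were called at 35 against 11.8 mM. In lists this short, here and below, 0 calls therefore say little. Of 8 translation arrest and dormant ribosome genes tested with Dapl1, 0 were called in any comparison, and its relative Dap had a log2 fold change of 0.07 at 35 against 11.8 mM. Eif5a, an elongation factor that in frog and zebrafish eggs joins the dormant ribosome with Dapl1, had 178 ± 23.8 CPM at 11.8 mM, 219 ± 9.64 CPM at 20 mM and 211 ± 2.03 CPM at 35 mM (mean ± SD, n = 3 libraries each). Its log2 fold change at 20 mM was 0.30 ± 0.13 (adjusted p = 0.529, edgeR's quasi-likelihood test). Of 22 genes for poly(A) tail enzymes and their partners tested with Tent5a, 0 were called. Cnot6, a deadenylase, had a log2 fold change of -0.62 ± 0.20 at 35 mM (adjusted p = 0.180), and Tent5c, the relative of Tent5a, had -0.06 (adjusted p = 0.939, both by edgeR's quasi-likelihood test).

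The transporter Slco1a5 carries organic anions such as bile salts and thyroid hormones into cells and lies on chromosome 6 (142234227 to 142322981, minus strand). It had 6.66, 7.18 and 12.2 CPM at 11.8 mM, 18.5, 20.0 and 25.1 CPM at 20 mM, and 29.2, 24.1 and 25.9 CPM at 35 mM. The libraries at 20 mM lay above all those at 11.8 mM, and the highest of them (25.1 CPM) reached into the range at 35 mM. Its log2 fold change was 1.62 ± 0.23 at 35 against 11.8 mM, 1.30 ± 0.23 at 20 against 11.8 mM and 0.32 ± 0.20 at 35 against 20 mM. Without replicate 3 at 20 mM the call at 20 mM was lost (1.16).

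Slc25a40, a mitochondrial carrier whose paralogue Slc25a39 imports glutathione into mitochondria, had few reads. It lies on chromosome 5 (8422850 to 8454797, plus strand). Its libraries held 3, 7 and 2 reads at 11.8 mM, 25, 18 and 17 reads at 20 mM, and 12, 18 and 16 reads at 35 mM. These came to 0.800, 1.62 and 0.583 CPM at 11.8 mM, 7.70, 4.55 and 4.79 CPM at 20 mM, and 3.22, 5.23 and 4.55 CPM at 35 mM. All 6 libraries at 20 and 35 mM were above the 3 at 11.8 mM, and the highest library of all was at 20 mM. Summed over libraries the reads were 12 at 11.8 mM (exact 95% Poisson interval 6.20 to 21.0), 60 at 20 mM (45.8 to 77.2) and 46 at 35 mM (33.7 to 61.4). These intervals take each read as independent and cover counting error only. Copies made by amplification are among the reads, so that the intervals may be too narrow.

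The log2 fold change of Slc25a40 was 2.40 ± 0.47 at 20 against 11.8 mM, 2.02 ± 0.49 at 35 against 11.8 mM and -0.38 ± 0.38 at 35 against 20 mM. Replicates 1 and 3 at 11.8 mM lay at or below the level of 3 reads, so that the size of these values depends on very few reads. Its call at 35 mM was lost in 7 of 17 alternatives, among them those without replicate 1 or 3 at 11.8 mM (1.87 and 1.77) or replicate 2 or 3 at 35 mM (1.87 and 1.99). The call at 20 mM was lost without replicate 1 or 3 at 11.8 mM (2.25 and 2.15) or replicate 1 at 20 mM (2.13). With the acinar covariate it was lost as well (2.18), and it was kept in 13 of 17 alternatives.

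In the lists of related carriers, which were also short, 0 genes were called. Of 7 genes for transporters of organic anions or thyroid hormones tested with Slco1a5, 0 were called. Slco1a6, which lies next to Slco1a5, had 239, 251 and 326 CPM at 11.8 mM, 374, 357 and 313 CPM at 20 mM and 293, 302 and 342 CPM at 35 mM. The groups overlapped at 35 against 11.8 mM, and the log2 fold change at 20 against 11.8 mM was 0.36 ± 0.14 (adjusted p = 0.446, edgeR's quasi-likelihood test). Of 21 genes for mitochondrial carriers, glutathione synthesis and use, peroxide removal and iron-sulfur clusters tested with Slc25a40, 0 were called. Slc25a39 had 464 ± 42.3 CPM at 11.8 mM, 426 ± 29.3 CPM at 20 mM and 475 ± 38.2 CPM at 35 mM, and Gpx1, a glutathione peroxidase, had a log2 fold change of -0.43 ± 0.17 at 35 mM (adjusted p = 0.342, edgeR's quasi-likelihood test).

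The receptor gene Tacr3 had the largest fitted change between 20 and 35 mM among the 10. It encodes the receptor of the tachykinin neurokinin B, which couples to Gq and calcium release, and lies on chromosome 3 (134829007 to 134934579, plus strand). Tacr3 had 6.66, 7.18 and 4.95 CPM at 11.8 mM, 8.93, 11.1 and 8.74 CPM at 20 mM, and 19.9, 19.5 and 13.9 CPM at 35 mM. The 3 groups did not overlap, so that the order of the concentrations held in every library. The log2 fold changes of Tacr3 were 0.61 ± 0.26 at 20 against 11.8 mM, 0.88 ± 0.24 at 35 against 20 mM and 1.49 ± 0.25 at 35 against 11.8 mM.

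Ligands for this receptor were scarce in the same libraries. Tac2, the mouse gene of neurokinin B, had 0 reads in all 9 libraries, and so had Tacr2, another tachykinin receptor. Tac1, the gene of substance P and neurokinin A, had 27 reads in all, and Tacr1, the substance P receptor, had 2. A gene at 0 reads is below the 3 reads per library that a count of 0 allows, which is 0.694 to 0.924 CPM depending on the library. This limit takes each read as independent and covers counting error only. Of 7 genes of Gq signalling tested, 0 were called. The nearest to a call was Itpr1, an inositol trisphosphate receptor that releases calcium from the endoplasmic reticulum, with 17.8 ± 5.61 CPM at 11.8 mM, 12.8 ± 1.47 CPM at 20 mM and 9.38 ± 1.24 CPM at 35 mM. Its log2 fold change at 35 against 11.8 mM was -0.91 ± 0.24 (adjusted p = 0.0720, edgeR's quasi-likelihood test). Without replicate 2 at 11.8 mM Itpr1 was called (log2 fold change -1.16).

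Tnfrsf23 encodes a mouse decoy receptor that binds the death ligand TRAIL and has no death domain, and it lies on chromosome 7 (143665809 to 143685872, minus strand). It had 11.7, 11.8 and 5.83 CPM at 11.8 mM, 25.3, 20.5 and 26.2 CPM at 20 mM, and 30.3, 24.1 and 21.6 CPM at 35 mM. The libraries at 20 and 35 mM overlapped, with replicate 1 at 35 mM above all those at 20 mM, and all 6 were above those at 11.8 mM. In log2 units the fold change was 1.35 ± 0.23 at 35 against 11.8 mM, 1.27 ± 0.23 at 20 against 11.8 mM and 0.08 ± 0.21 at 35 against 20 mM. The call at 20 mM was lost without replicate 3 at 11.8 mM (1.02) or replicate 1 or 3 at 20 mM (1.23 and 1.20). With the acinar covariate it was lost as well (1.13), and it was kept in 14 of 21 alternatives.

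Reads of Tnfrsf23 can be shared with its neighbour Tnfrsf22, another decoy TRAIL receptor. Of 551 windows of 50 bases in the last 600 bases of the transcript, 367 (66.6%) also occur in Tnfrsf22, including all of the last 100 bases, and an exon overlaps the opposite-strand gene E230032D23Rik, so that the level of Tnfrsf23 is uncertain. The other 9 genes had 0 such windows shared with any gene of the annotation. Tnfrsf22 had 3.37 ± 0.645 CPM at 11.8 mM, 4.31 ± 0.451 CPM at 20 mM and 4.97 ± 1.36 CPM at 35 mM, with a log2 fold change of 0.55 ± 0.36 at 35 against 11.8 mM (adjusted p = 0.662, edgeR's quasi-likelihood test). Of 10 genes of death receptor signalling tested, 0 were called. Tnfsf10, the gene of TRAIL, had 53 reads in all and Tnfrsf10b, its death receptor, 19, and both were below the expression filter. Traf2, a signalling adaptor, had a log2 fold change of -0.77 ± 0.34 at 35 mM (adjusted p = 0.418, edgeR's quasi-likelihood test).

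Rspo4, a secreted R-spondin that strengthens Wnt signalling through Lgr receptors and is needed for nails in humans, lies on chromosome 2 (151842927 to 151874668, plus strand). It had 6.66, 9.26 and 7.87 CPM at 11.8 mM, 13.5, 11.6 and 13.0 CPM at 20 mM, and 25.2, 19.2 and 11.9 CPM at 35 mM. The libraries at 35 mM were spread widely, and replicate 3 lay within the range at 20 mM. On the log2 scale the fold change was 1.24 ± 0.25 at 35 against 11.8 mM, 0.67 ± 0.26 at 20 against 11.8 mM and 0.57 ± 0.24 at 35 against 20 mM. Without replicate 1 at 35 mM the call at 35 mM was lost (0.96).

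The other R-spondins had few reads, with 1 read of Rspo1, 0 of Rspo2 and 5 of Rspo3 over all 9 libraries. Of 10 Wnt pathway genes tested with Rspo4, 0 were called. Lgr4, an R-spondin receptor, had a log2 fold change of 0.30 at 35 against 11.8 mM (adjusted p = 0.892, edgeR's quasi-likelihood test). Znrf3, the ubiquitin ligase that R-spondins remove from the cell surface, had 5.33, 3.70 and 4.66 CPM at 11.8 mM, 3.08, 3.54 and 1.69 CPM at 20 mM and 2.68, 8.71 and 3.69 CPM at 35 mM. The libraries at 20 mM lay below those at 11.8 mM, and those at 35 mM overlapped both. Its log2 fold change was -0.70 ± 0.43 at 20 against 11.8 mM (adjusted p = 0.730) and 0.83 ± 0.43 at 35 against 20 mM (adjusted p = 0.932, both by edgeR's quasi-likelihood test). The Wnt target genes Axin2, Lef1 and Lgr5 had 13, 13 and 15 reads in all and were not tested.

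Cib3 was the lowest of the 10 at high glucose relative to 11.8 mM. It encodes a calcium- and integrin-binding protein that in mouse joins the mechanotransduction channel of inner ear hair cells, and it lies on chromosome 8 (72204335 to 72212837, minus strand). Cib3 had 20.8, 15.3 and 21.0 CPM at 11.8 mM, 8.93, 8.09 and 7.33 CPM at 20 mM, and 7.51, 4.07 and 4.26 CPM at 35 mM. All libraries at 20 and 35 mM lay below those at 11.8 mM, and replicate 1 at 35 mM lay within the range at 20 mM. The fitted log2 fold change was -1.83 ± 0.26 at 35 against 11.8 mM, -1.22 ± 0.25 at 20 against 11.8 mM and -0.61 ± 0.29 at 35 against 20 mM. Its summed reads were 216 at 11.8 mM (exact 95% Poisson interval 188 to 247), 87 at 20 mM (69.7 to 107) and 57 at 35 mM (43.2 to 73.9).

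The call of Cib3 at 20 mM was lost when replicate 1 or 3 at 11.8 mM was left out (-1.15 in each case), and also without replicate 1, 2 or 3 at 20 mM (-1.29, -1.22 and -1.15). With the acinar covariate it was lost as well (-1.16), and it was kept in 12 of 21 alternatives. Of 11 genes tested with Cib3, which were 10 calcium sensors and Whrn, a scaffold protein of hair cells, 0 were called, with log2 fold changes at 35 against 11.8 mM of -0.21 in Cib1 and -0.01 in Cib2, and 0 reads of Cib4 in any library. Kcnip1, a potassium channel partner, had 38.3 ± 2.98 CPM at 11.8 mM, 46.7 ± 3.17 CPM at 20 mM and 45.7 ± 0.938 CPM at 35 mM, with a log2 fold change of 0.29 ± 0.15 at 20 mM (adjusted p = 0.637, edgeR's quasi-likelihood test).

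Cryl1 encodes L-gulonate 3-dehydrogenase, an enzyme of the uronate cycle that turns glucuronate into pentose sugars, and lies on chromosome 14 (57274993 to 57398529, minus strand). It had 20.8, 28.2 and 36.7 CPM at 11.8 mM, 25.3, 18.4 and 25.1 CPM at 20 mM, and 11.5, 14.8 and 15.9 CPM at 35 mM. The groups at 11.8 and 20 mM overlapped, and all libraries at 35 mM were below both. Its log2 fold change was -1.02 ± 0.21 at 35 against 11.8 mM, -0.32 ± 0.20 at 20 against 11.8 mM and -0.70 ± 0.22 at 35 against 20 mM. Its call was lost without replicate 3 at 11.8 mM (-0.81) or replicate 1 at 35 mM (-0.89).

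Of 12 genes of the uronate, polyol and adjoining sugar pathways tested with Cryl1, 0 were called. Akr1a1, the aldehyde reductase that makes gulonate, had a log2 fold change of 0.25 at 35 against 11.8 mM (adjusted p = 0.507, edgeR's quasi-likelihood test). Akr1b8, an aldose reductase relative, had 2.13, 2.78 and 0.583 CPM at 11.8 mM, 4.62, 4.04 and 3.10 CPM at 20 mM and 3.49, 2.90 and 2.27 CPM at 35 mM. Its libraries at 35 and 11.8 mM overlapped, and those at 20 mM lay above those at 11.8 mM, with a log2 fold change of 1.04 ± 0.47 (adjusted p = 0.583, edgeR's quasi-likelihood test).

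Sult1d1, a sulfotransferase of catecholamines that is active in mice and a pseudogene in humans, lies on chromosome 5 (87554645 to 87569027, minus strand). It had 23.2, 22.7 and 27.7 CPM at 11.8 mM, 21.2, 20.0 and 14.7 CPM at 20 mM, and 14.5, 11.6 and 12.8 CPM at 35 mM. The 3 groups did not overlap, but the lowest library at 20 mM (14.7 CPM) was next to the highest at 35 mM (14.5 CPM). The log2 fold changes were -0.91 ± 0.20 at 35 against 11.8 mM, -0.39 ± 0.19 at 20 against 11.8 mM and -0.52 ± 0.21 at 35 against 20 mM. Its call was lost without replicate 3 at 11.8 mM (-0.82) or replicate 2 or 3 at 35 mM (-0.84 and -0.90).

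Among 10 sulfotransferase, sulfate donor and sulfatase genes tested with Sult1d1, 1 was called, and it was lower at 35 mM. This was Bpnt1, the phosphatase that clears the adenosine phosphate left by sulfation. Bpnt1 had 91.4, 78.9 and 81.0 CPM at 11.8 mM, 56.7, 58.4 and 68.2 CPM at 20 mM and 60.4, 59.8 and 50.8 CPM at 35 mM. All libraries at 35 mM were below all at 11.8 mM, with a log2 fold change of -0.55 ± 0.14 (adjusted p = 0.0473, edgeR's quasi-likelihood test). Between 20 and 11.8 mM it was -0.45 ± 0.14 (adjusted p = 0.259, the same test).

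The call of Bpnt1 was lost in 14 of 22 alternatives, and its adjusted p ranged from 0.0186 to 0.509 over them. It was lost without any 1 library at 11.8 or 35 mM: without replicates 1, 2 or 3 at 11.8 mM the edgeR adjusted p was 0.0949, 0.0528 or 0.0919, and without replicates 1, 2 or 3 at 35 mM it was 0.131, 0.139 or 0.235. Without replicate 2 or 3 at 20 mM it was 0.0671 or 0.0546. Sult2b1, a cholesterol sulfotransferase, had a log2 fold change of 1.43 at 35 against 20 mM and was not called (adjusted p = 0.760, edgeR's quasi-likelihood test). The genes Sult1a1, Sult1c1, Sult1e1 and Sult2a8 had 0 reads in all libraries.

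Counted over all 10 lists, 118 relatives and pathway partners were tested. At 35 against 11.8 mM 0 of them rose and 1 fell (0.847%, against 0.863% of all genes tested), and 9 had an unadjusted p under 0.05, as had 10.5% of all genes. At 20 against 11.8 mM edgeR called 0 and DESeq2 0, with 8 at an unadjusted p under 0.05 (7.97% of all genes). At 35 against 20 mM edgeR called 0 and DESeq2 0, with 5 at an unadjusted p under 0.05 (5.29% of all genes). The median log2 fold change of the 118 genes was -0.02 at 35 against 11.8 mM and -0.01 at 20 against 11.8 mM, and over all genes tested it was 0.00 in both.

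**Figure D2:**
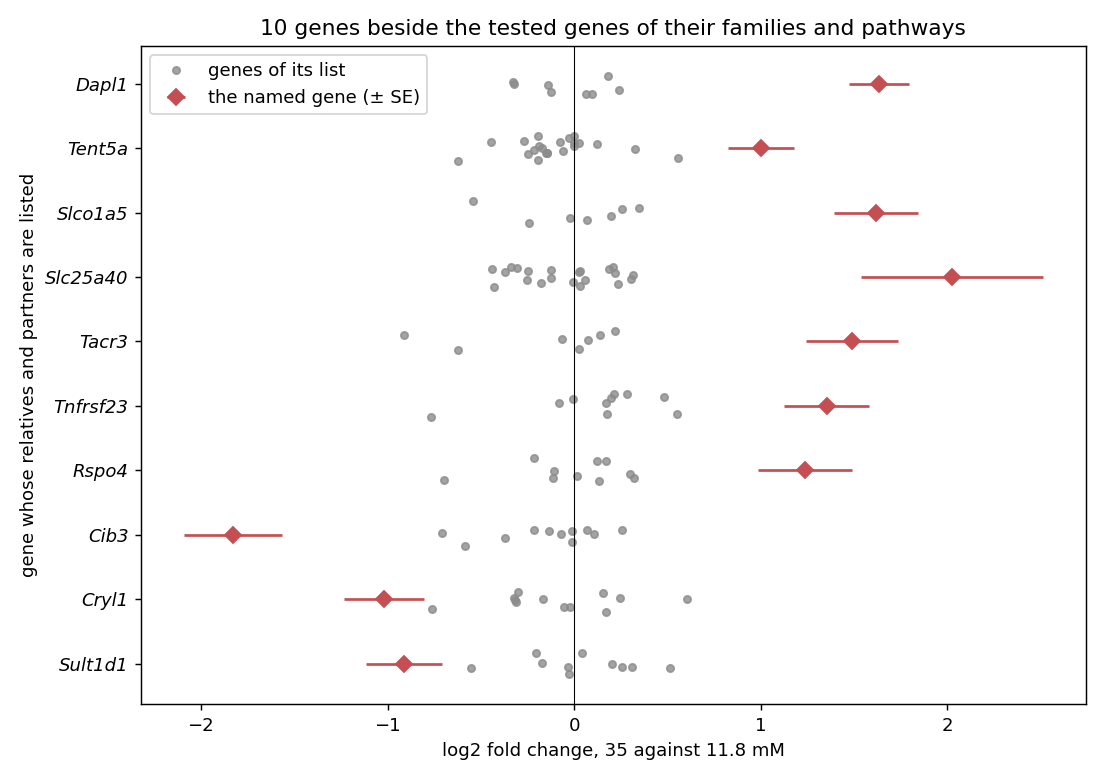
Log2 fold change at 35 against 11.8 mM (horizontal axis) of the 10 genes (red diamonds, ± SE) and of the 118 tested genes of their families and pathways (grey points, 1 line per list, spread vertically so that they can be seen). Bpnt1 at -0.55 in the Sult1d1 line is the 1 grey point that passed the test. In each line the named gene lies outside the range of its list. This follows from the choice of the 10 genes by their values in these libraries and is no test.

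The shape over concentration differed among the 10. For 7 genes (Dapl1, Tent5a, Slco1a5, Slc25a40, Tnfrsf23, Rspo4 and Cib3) the libraries separated at the first step, 20 against 11.8 mM, and overlapped at the second, 35 against 20 mM. Tacr3 and Sult1d1 separated at both steps in the same direction, as did 43 of all genes tested (0.442%), and Cryl1 separated at the second step alone. Over all genes tested 12.8% separated at the first step and 11.9% at the second, in either direction. The share of all genes that separated at a single step alone was not counted, so that these classes have no like share beside them. Of the other 74 genes called at 35 against 11.8 mM, 34 separated at the first step alone, 24 at both, 13 at the second alone and 3 at neither.

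The share of the log2 change at 35 mM that was present at 20 mM gives the same order in numbers. On the concentration axis 20 mM lies 35.3% of the way from 11.8 to 35 mM, or 48.5% on a log scale of glucose. The share was 119% ± 20.9 in Slc25a40, 93.7% ± 14.9 in Tnfrsf23, 92.1% ± 8.94 in Dapl1, 84.6% ± 16.1 in Tent5a and 80.4% ± 11.7 in Slco1a5 (SE by the delta method). It was 66.9% ± 13.6 in Cib3, 54.1% ± 17.5 in Rspo4, 43.1% ± 19.0 in Sult1d1, 40.9% ± 14.9 in Tacr3 and 31.3% ± 18.0 in Cryl1. From Slc25a40 to Rspo4 in this order most of the fitted difference was in place at 20 mM. In Rspo4 the excess over an even split was smaller than the SE. Neighbours in this order differ by less than their combined errors, and both parts of each share rest on the same 3 libraries at 11.8 mM. The other 74 called genes had a median share of 64.3%, with quartiles of 48.8% and 79.7%.

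**Figure D3:**
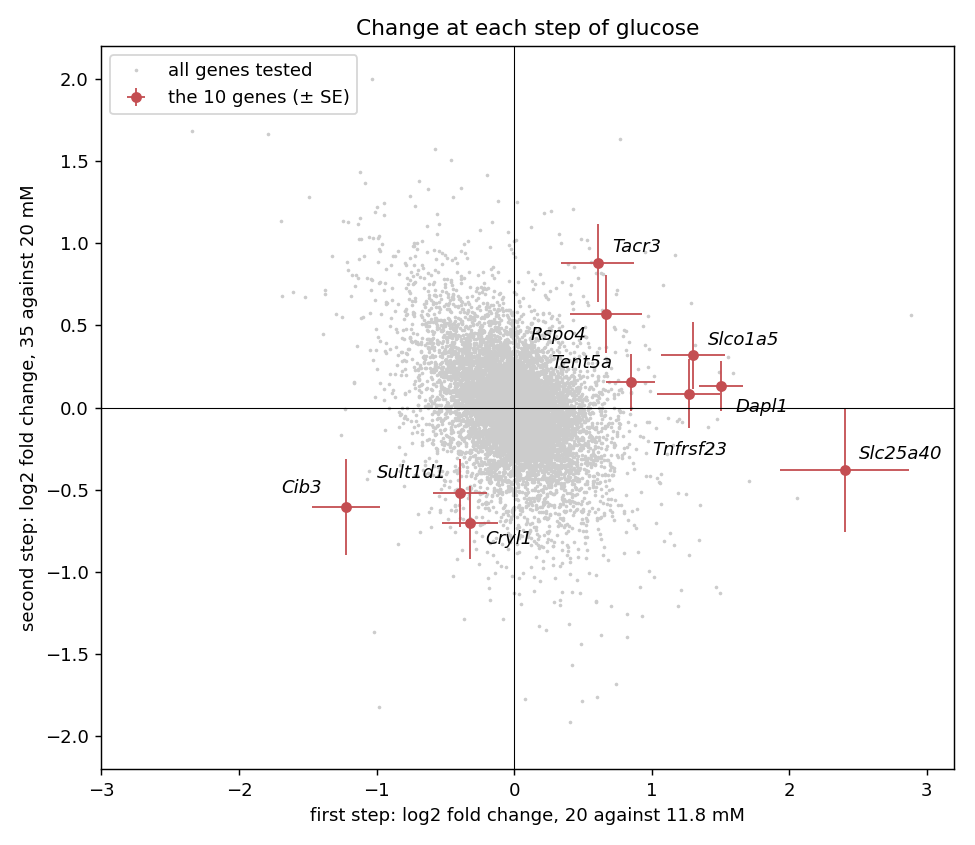
Log2 fold change at the first step, 20 against 11.8 mM (horizontal axis), and at the second, 35 against 20 mM (vertical axis), for the 10 genes (red, ± SE) and all genes tested (grey, 2 of which lie outside the axes). Both steps use the libraries at 20 mM, which tilts the grey cloud, and Slc25a40 (2.40 and -0.38) lies far to the right while Tacr3 (0.61 and 0.88) lies highest of the 10.

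Each library had been made as 3 barcoded sub-libraries of the same RNA, which show the technical part of the spread. Their CPM are scaled by the gene counts of the sub-library, without TMM. For Dapl1 the SD between single sub-libraries of a library was 15.4 CPM. Between libraries of a concentration, each taken as the mean of its 3 sub-libraries, it was 18.0 CPM. For Tacr3 the same SDs were 5.65 and 2.89 CPM, and for Cib3 5.36 and 3.27 CPM. These SDs cannot be compared directly, since a mean of 3 sub-libraries varies less than a single sub-library. All 9 sub-libraries at 35 mM were higher than all 9 at 11.8 mM for Dapl1 and Tnfrsf23 and lower for Cib3, whereas the other 7 genes overlapped. For Cib3 the margin was very narrow, between the highest sub-library at 35 mM (10.84 CPM, 11 reads) and the lowest at 11.8 mM (10.87 CPM, 20 reads). Between 20 and 11.8 mM all sub-libraries were separate for Dapl1 alone. The share of all genes tested that separate in this way was not counted, so that these counts have nothing to be set against.

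A pair of sub-libraries stood apart in alignment: sub-library 3 of replicate 1 at 35 mM had 39.5% of alignments that were not unique, and sub-library 3 of replicate 1 at 11.8 mM had 35.2%, against 11.3% to 17.0% in the rest. In that sub-library at 35 mM Tacr3 had 37.9 CPM, against 17.7 and 11.4 CPM in the others of its library. Dapl1 (179 CPM), Tnfrsf23 (37.9 CPM) and Slco1a5 (41.7 CPM) also had their highest value of any sub-library there. In that sub-library at 11.8 mM Cib3 had 37.5 CPM, against 17.3 and 18.0 CPM in the others of its library. Sub-library 3 was also the highest for Cib3 in the other libraries at 11.8 mM, with 18.7 against 13.3 and 10.9 CPM in replicate 2 and 24.6 against 15.8 and 15.0 CPM in replicate 3. Without both sub-libraries 10 of the 10 genes were called at 35 against 11.8 mM and 4 at 20 against 11.8 mM, where Tent5a and Cib3 were no longer called (0.80 and -1.11).

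**Figure D4:**
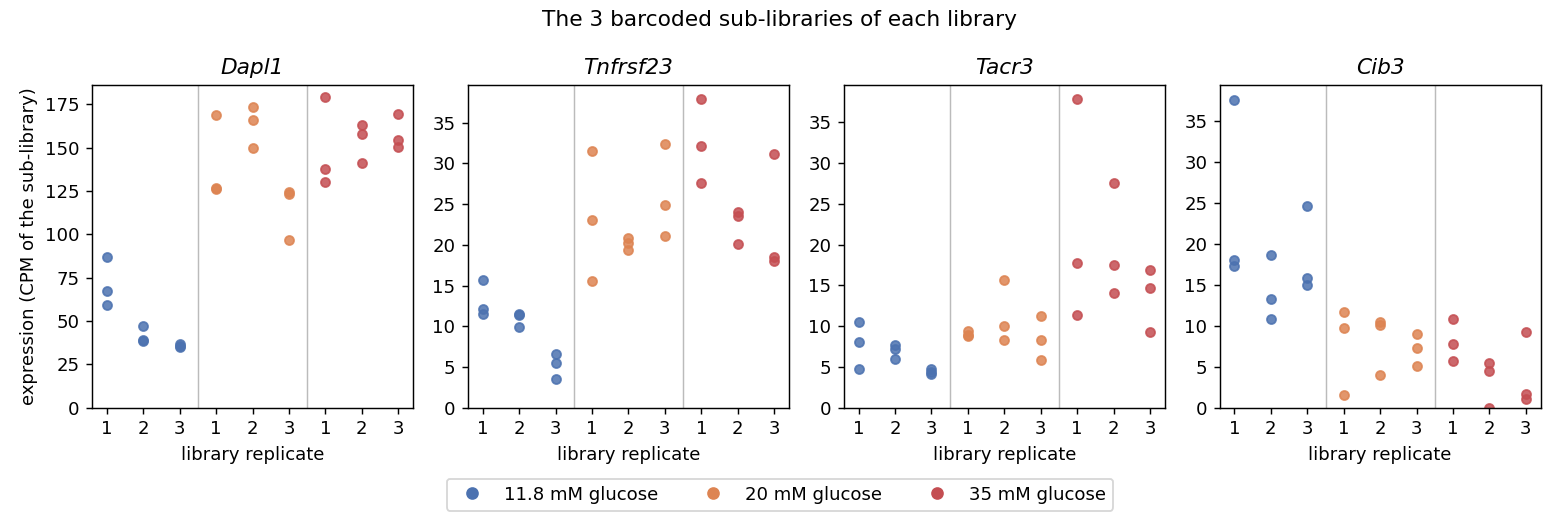
Expression of Dapl1, Tnfrsf23, Tacr3 and Cib3 (vertical axes, CPM of the sub-library, each from 0) in the 3 barcoded sub-libraries of each library, with libraries numbered 1 to 3 at 11.8, 20 and 35 mM from left to right. The points for Dapl1 at 20 and 35 mM all lie above those at 11.8 mM. The highest points of Dapl1 (179 CPM), Tnfrsf23 (37.9 CPM), Tacr3 (37.9 CPM) and Cib3 (37.5 CPM) all belong to the sub-libraries with many alignments that were not unique.

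Genes near the 10 on the chromosome gave 1 call. Of 30 tested genes within 250 kb, 1 was called higher at 35 against 11.8 mM, where 0.626% of all genes were, and 4 had an unadjusted p under 0.05, as had 10.5% of all genes. The called gene was Iapp, the amyloid peptide of beta cells, whose gene lies inside the span of Slco1a5. Iapp had 13867, 14045 and 13220 CPM at 11.8 mM, 19333, 16365 and 18173 CPM at 20 mM and 21017, 20680 and 21781 CPM at 35 mM. All libraries at 35 mM were above those at 11.8 mM, and the log2 fold change was 0.63 ± 0.13 (adjusted p = 0.00865, edgeR's quasi-likelihood test; range over alternatives 6.52e-09 to 0.337). The call was lost without replicate 2 at 11.8 mM (adjusted p = 0.0503) or replicate 2 at 35 mM (adjusted p = 0.0567) by the same edgeR test.

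For 20 against 11.8 mM edgeR called 0 neighbours, DESeq2 called 1, and 3 had an unadjusted p under 0.05 (7.97% of all genes). At 35 against 20 mM edgeR and DESeq2 called 0, and 2 had an unadjusted p under 0.05 (5.29% of all genes). The nearest tested neighbours of Dapl1 were Pkp4 and Tanc1, with log2 fold changes of -0.35 and 0.36 at 35 against 11.8 mM. Those of Slc25a40 were Adam22 (0.02) and Rundc3b (0.01), those of Rspo4 were Psmf1 (-0.06) and Fam110a (0.50), and those of Cib3 were Rab8a (0.19) and Fam32a (-0.10). Osbpl5, 2.89 kb from Tnfrsf23, had -0.36, and Ift88, 25.5 kb from Cryl1, had -0.63. None of these passed the test, and Tent5a, Tacr3 and Sult1d1 had no tested neighbour in the window.

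The genes with the profile most like each of the 10 were found among 5318 tested genes that averaged 10 CPM or more and were neither 1 of the 10, a predicted gene (Gm and Rik names) nor a pseudogene, by the root mean square difference of log2 CPM, each centred on its own mean over the 9 libraries. Pdyn, the dynorphin precursor, and Vgf, a granule protein, were nearest to Dapl1 (0.29 and 0.32 on the log2 scale) and to Tnfrsf23 (0.23 and 0.25). Pdyn was also nearest to Slc25a40 (0.47), followed by Nucb2, the nesfatin precursor (0.57). For scale, the root mean square of each of the 10 genes about its own mean ran from 0.40 in Sult1d1 to 0.95 in Slc25a40. Pdyn had 172, 182 and 137 CPM at 11.8 mM, 378, 393 and 354 CPM at 20 mM and 400, 330 and 340 CPM at 35 mM. Like Dapl1, it was higher in every library at 20 and 35 mM than in any at 11.8 mM, with overlap between 20 and 35 mM.

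Tent5a was nearest to Pycr1, an enzyme of proline synthesis (0.20), and Cabp1, a calcium sensor (0.22). Slco1a5 was nearest to the water channel Aqp4 (0.32) and the thioredoxin-binding protein Txnip (0.35), where its own root mean square was 0.73. Aqp4 and Txnip differed from it in shape, with log2 fold changes at 35 against 20 mM of 0.81 and 0.95, against 0.32 in Slco1a5. Tacr3 was nearest to Nynrin (0.23) and Col27a1, a fibrillar collagen (0.25), and Rspo4 to Slc7a3, a cationic amino acid transporter (0.23), and Gsdma, a gasdermin (0.29). Of the 3 genes that were lower at high glucose, Cib3 was nearest to the antimicrobial peptide gene Defb1 (0.38), followed by Junb of the AP-1 family (0.39). Cryl1 was nearest to Ppp1r3b, a glycogen-targeting subunit of protein phosphatase 1 (0.15), and Aard (0.19), and Sult1d1 to Calcoco1 (0.14) and Pla2g7, a lipoprotein-associated phospholipase (0.15). Among the 10 themselves the closest pairs were Tacr3 with Rspo4 (0.28), Cryl1 with Sult1d1 (0.31) and Dapl1 with Tnfrsf23 (0.34).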

How the data were processed

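RNA of 9 islet libraries was sequenced by CEL-Seq2 from 3 ng of RNA, per the labels' protocols. The authors deposited read counts of each gene in each barcoded sub-library; cutadapt, TopHat, HTSeq and DESeq2 on GRCm38.p4 are named in the submitters' processing notes. Their versions, and the annotation and strand used in counting: not given in the sources used here. Counts had not been collapsed by molecular identifier: they reached 605402 for a gene of a sub-library, and identifiers of 6 bases allow 4096. Copies made by amplification are therefore counted. The Poisson intervals take each read as independent and cover counting error only, so that they may be too narrow.

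Sub-libraries (27) were matched to samples by the sample sheet and summed, 3 per library. Another 30 columns matched no label and were not used. The 92 spike-in RNAs and 5 summary lines (19.6% to 29.9% of counted reads per library) did not enter library sizes or tests. Loci are from GENCODE M21 (GRCm38), and promoters from RefSeq (GRCm38.p6).

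In R 4.3.3, edgeR 4.0.16 was used with TMM, an expression filter by group and the robust quasi-likelihood test, with 1 mean per concentration over all 9 libraries. A call needed an adjusted p under 0.05 (Benjamini-Hochberg, 9739 genes). The method was tested on simulated data. An exact permutation test of 3 against 3 libraries cannot give a p under 0.1, so that calls rest on the spread shared across genes. DESeq2 1.42.0 was an alternative, beside other filters, scalings, a replicate block, an acinar marker covariate, single sub-libraries and libraries left out; 2 alternatives (without a pair of sub-libraries, and DESeq2 on the filtered genes) were chosen after seeing the data.

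The members and lists were chosen with earlier results of these data known. Named beside the 10 genes were, from each partner list, up to 3 called genes or else the 1 with the smallest unadjusted p. Also named were called neighbours or else the nearest on each side, and the 2 genes with the most similar profile. The other family, ligand and receptor genes named as values (Dap, Tent5c, Slc25a39, Tac1, Tac2, Tacr1, Tacr2, Tnfrsf22, Tnfsf10, Tnfrsf10b, R-spondins, Lgr4, Lgr5, Axin2, Lef1, Cib1, Cib2, Cib4, Akr1a1 and sulfotransferases) lie outside that rule and were chosen after their values were seen. Closest relatives by protein identity, also planned, were not used here.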

Additional observations from a re-analysis of the deposited data

How the results depend on the processing

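Over 22 alternatives no call of a named gene reversed. Of 10 genes called at 35 against 11.8 mM, 6 remained with the DESeq2 Wald test, which gave an adjusted p to 6 of them, 9 with DESeq2 on the filtered genes, and 3, 4 and 5 with sub-library 1, 2 or 3 alone, which hold fewer reads. With 1 library left out the count was 6 to 10. At 20 against 11.8 mM, where 6 were called, DESeq2 gave 2 (with an adjusted p for 2), DESeq2 on the filtered genes 6, the acinar covariate 3, single sub-libraries 1, 2 and 3, and 1 library left out 2 to 6. Among the libraries left out, the count moved by over 1.5 times at 35 mM without replicate 3 at 11.8 mM (6), and at 20 mM without that library (2), replicate 1 (3) or replicate 3 (2) at 20 mM; the cause was not tested. At 35 against 20 mM the count was 0 in all of them.

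The 1 partner gene called at 35 against 11.8 mM became 2 with no filter and 0 with the replicate block, with only the 2 concentrations fitted, the acinar covariate, sub-library 1 or 2 alone, and without the pair of sub-libraries; with 1 library left out it was 0 to 1. The 1 neighbour called became 0 without the 20 most abundant genes, which include it, and with sub-library 1 alone, and was 0 to 1 with 1 library left out. At 20 against 11.8 mM, where edgeR called 0 neighbours, both DESeq2 tests called 1.

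Same-numbered libraries did not deviate together (correlations -0.146 to 0.046, against -0.159 to 0.163 for libraries of different numbers). No pairing by number was seen, but with 3 libraries per concentration this cannot settle whether the samples were paired. With the replicate block 9 and 5 of the 10 genes were called at 35 and at 20 against 11.8 mM. Slc25a40, with 2 to 25 reads per library, is limited by depth.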
